A study of Mus musculus with 9 samples.

Results

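Homeostatic microglia identity genes were examined in microglia exposed to glioma-conditioned medium (GCM). The set holds 34 genes chosen by name, from the transcripts that mark resting microglia and the transcription factors that maintain them. Earlier results of these data were known when the genes were chosen. On the arrays 33 of the 34 were measured, among 17097 genes in all, and Siglech, a sialic acid-binding lectin of microglia, was not analysed here because no probe set carried its symbol alone. Where a gene had several probe sets, the one with the highest mean over the 9 arrays stood for it.

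Primary microglia came from cortices of newborn C57BL/6J mice (P0-P2) and were plated on plastic in medium with fetal calf serum. Groups of 3 samples each were kept for 6 h in GCM LN18, kept for 6 h in GCM U87-MG, or left untreated. LN18 and U87-MG are established human glioblastoma lines, so medium conditioned by human cells was put on mouse cells, and each line is a single model of a tumor. The sources used here do not give whether the dishes of untreated microglia also received fresh medium, so the change of medium and the glioma factors cannot be told apart. The submitters state that the 3 replicates derive from separate cortical cultures, but not whether a number marks 1 culture in all 3 groups.

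Microglia are the resident macrophages of the brain parenchyma. Their identity program includes surface sensors of neurons and of the extracellular space, such as the fractalkine receptor, and rests on the lineage factors PU.1 and Irf8 together with Sall1 and the Mef2 factors. Transforming growth factor beta (TGFβ) maintains many of these genes in the brain, and microglia lose much of the program when they are taken into culture.

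RNA of each sample went on 1 Affymetrix array (MG-430 PM strip), and the deposited values are log2 signals, where a difference of 1 is a 2-fold change. For 100% of the probe sets, the means over the 3 arrays of replicate 1, of replicate 2 and of replicate 3 are equal (tolerance 1e-06), so an offset of each replicate had been removed before deposit. The tests therefore carried the replicate number as a block, with 4 residual degrees of freedom, and genes were called at an adjusted p under 0.05 from limma. Values without the block (6 degrees of freedom) are given where they change a call of a member or a count of calls. That fit counts degrees of freedom that the values no longer hold, so its p-values are too small. The removed offsets also take away differences between cultures, so spread within groups is understated and groups separate more readily. Array medians lay between 3.395 and 3.407. Markers of microglia and macrophages (Aif1, Itgam, Csf1r, Trem2, Tyrobp) had mean log2 signals of 10.01 to 10.07 in GCM LN18, 9.89 to 10.15 in GCM U87-MG and 9.72 to 9.92 in untreated cells, far above the median gene level of 4.34. The means of the markers of astrocytes, oligodendrocyte lineage, neurons, fibroblasts, endothelium and blood myeloid cells lay between 2.57 and 3.97 on every array, and 0 of these 37 markers were called in either medium with limma, with or without the block (unadjusted, 0 had p under 0.05 in GCM LN18, and 3 were higher and 2 lower in GCM U87-MG). Border macrophage markers averaged 5.83 to 5.86 in GCM LN18, 5.80 to 5.88 in GCM U87-MG and 5.77 to 5.84 in untreated cells. Of these 7 markers, Mrc1, the mannose receptor, had a log2 fold change of -0.25 in GCM LN18 (adjusted p = 0.182, 0.0375 without the block) and Pf4, a platelet chemokine, of 0.27 (adjusted p = 0.218). Of the microglia markers, Aif1 had a log2 fold change of 0.33 in GCM LN18 (adjusted p = 0.104, 0.0193 without the block). All 5 were above 0 in both media, between 0.01 and 0.43 in GCM LN18 and between 0.02 and 0.41 in GCM U87-MG. With the block 0 of the 5 were called in either medium. Unadjusted (p under 0.05, limma), 2 were higher in GCM LN18 (5.68% of all genes) and 1 in GCM U87-MG (4.36%). The 4 blood myeloid markers averaged 3.25 to 3.30 in GCM LN18, 3.29 to 3.31 in GCM U87-MG and 3.17 to 3.20 in untreated cells. The part of these marker levels in the results was not tested. In such bulk samples, more cells of a type and more RNA per cell cannot be told apart.

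Several homeostatic genes rose in GCM LN18, and none was called lower. Olfml3, Tmem37, Cx3cr1, Tmem119, Bin1 and Irf8 rose, which is 6 of 33 members (18.2%), against 0.538% of all genes called higher and 0.339% called lower. This count was 1 without GCM LN18 replicate 2 (when 3 genes in all were called, in place of 150), 2 without GCM LN18 replicate 1 or 3, and 3 without control replicate 3. Without the replicate block 15 members were called higher and 0 lower, against 2.59% and 2.64% of all genes. At an unadjusted p under 0.05 from limma, 17 were higher (5.68% of all genes) and 1 lower (6.55% of all genes). In GCM U87-MG the 2 members that rose were Olfml3 and Cx3cr1 (6.06%, against 0.0468% of all genes called higher and 0% called lower), and 0 were lower. The count was 0 without any 1 of the GCM U87-MG arrays or control replicate 3, and 1 without control replicate 2 or GCM LN18 replicate 2 or 3. Unadjusted, 12 members were higher there (4.36% of all genes) and 1 lower (4.76%), at p under 0.05 from limma. Without the block 7 members were called higher in GCM U87-MG and 0 lower, against 0.807% and 0.708% of all genes. Because the members were chosen with earlier results of these data known, their shares against all genes are not an independent test.

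The shift was also seen in the members as a whole. The median log2 fold change of the 33 members was 0.25 with GCM LN18 and 0.14 with GCM U87-MG, beside 0.00 for all genes in either medium. Fold changes were above 0 for 22 members with GCM LN18 (66.7%) and for 24 with GCM U87-MG (72.7%), beside 48.5% and 48.7% of all genes. Of 33 other microglia genes, counted below, 24 (72.7%) and 22 (66.7%) were above 0, so these shares are not particular to the members. The medians of those other genes were 0.04 and 0.06. All 3 GCM LN18 arrays lay above all 3 untreated arrays for 17 members (51.5%, against 11.1% of all genes) and below them for 2 (6.06%, against 12.8%). For GCM U87-MG these were 12 members (36.4%, against 8.79%) and 2 members (6.06%, against 10.3%). Of the 33 other microglia genes, 10 (30.3%) lay above in this way in GCM LN18 and 3 (9.09%) below. In GCM U87-MG 8 of them (24.2%) lay above and 5 (15.2%) below, so raised shares above are not particular to the members. The mean signal of the members was 6.69 to 6.74 on the GCM LN18 arrays, 6.60 to 6.66 on the GCM U87-MG arrays and 6.38 to 6.39 on the untreated arrays. The same mean over all genes lay between 5.07 and 5.08 on every array. Both comparisons use the same 3 untreated arrays, so they do not support each other independently.

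**Figure D1:**
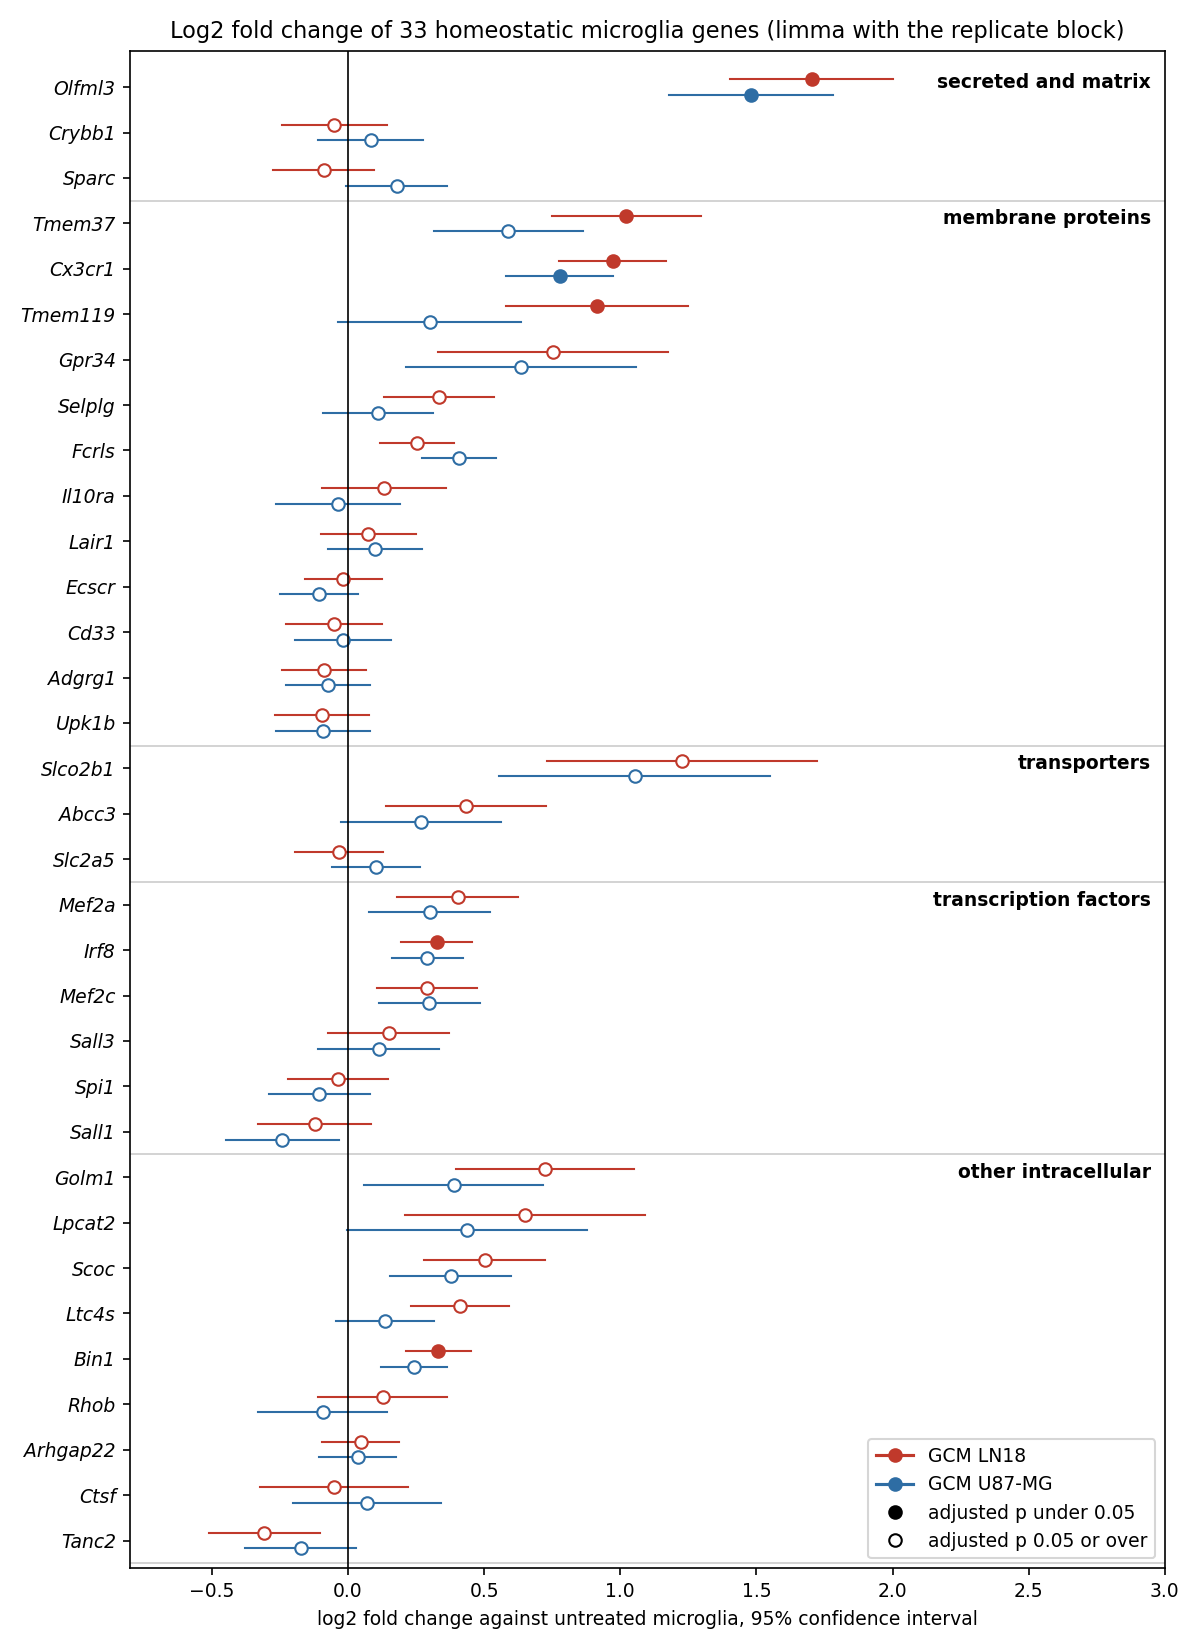
Log2 fold change of the 33 measured genes against untreated microglia (horizontal axis), with 95% confidence intervals from limma, grouped by role; GCM LN18 is red, GCM U87-MG is blue, and filled points have an adjusted p under 0.05. The 6 filled red and 2 filled blue points all lie right of 0, with Olfml3 at the far right, and Tanc2 and Sall1 lie lowest.

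Among the secreted proteins, Olfml3 showed the strongest response of the set. Olfml3 encodes a secreted glycoprotein with an olfactomedin domain that is abundant in microglia. Its log2 signals were 8.99, 9.30 and 9.06 in GCM LN18 and 8.79, 8.94 and 8.94 in GCM U87-MG, against 7.64, 7.18 and 7.42 in untreated cells. All GCM arrays lay above all untreated arrays by a wide margin. The fold change was 3.26-fold in GCM LN18 (log2 1.70, standard error 0.13, adjusted p = 0.00441) and 2.79-fold in GCM U87-MG (log2 1.48, standard error 0.13, adjusted p = 0.0168). With each array left out in turn, the call in GCM LN18 was kept in 9 of 9 fits. That in GCM U87-MG was kept in 5 of 9, with adjusted p-values of 0.122 without GCM U87-MG replicate 1, 0.0523 without replicate 2, 0.258 without replicate 3 and 0.0503 without control replicate 3. The matricellular protein gene Sparc and the crystallin gene Crybb1, both dimmer than the median gene, were not called. Sparc had log2 fold changes of -0.09 with GCM LN18 and 0.18 with GCM U87-MG, and Crybb1 of -0.05 and 0.08.

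Of 12 measured genes for surface receptors and membrane proteins, 3 rose with GCM LN18 and 1 with GCM U87-MG, and 0 were called lower (0 also at p under 0.05 unadjusted, limma). Cx3cr1, the receptor through which microglia sense neuronal fractalkine, rose in both media. Its log2 signals were 11.14, 11.33 and 11.30 in GCM LN18 and 11.03, 11.04 and 11.11 in GCM U87-MG, against 10.43, 10.23 and 10.19 in untreated cells. No GCM array overlapped the untreated ones. The change was 1.96-fold in GCM LN18 (log2 0.97, standard error 0.09, adjusted p = 0.00827) and 1.71-fold in GCM U87-MG (log2 0.78, standard error 0.09, adjusted p = 0.0499). The call in GCM LN18 was kept in 8 of 9 fits and lost without GCM LN18 replicate 2 (adjusted p = 0.0859), and that in GCM U87-MG was kept in 2 of 9 (highest adjusted p = 0.360, without GCM U87-MG replicate 3). A second probe set of Cx3cr1, adjusted over all probe sets, gave log2 fold changes of 1.20 (adjusted p = 0.00269) and 0.93 (adjusted p = 0.0136).

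Tmem37, which encodes a membrane protein related to calcium channel gamma subunits, rose 2.03-fold in GCM LN18. The log2 signals were 8.40, 8.19 and 8.14 in GCM LN18 and 7.87, 7.69 and 7.86 in GCM U87-MG, against 7.00, 7.39 and 7.27 in untreated cells. The 3 groups did not overlap, with GCM U87-MG between the others. The log2 fold change was 1.02 in GCM LN18 (standard error 0.12, adjusted p = 0.0194) and 0.59 in GCM U87-MG (adjusted p = 0.190, 0.0377 without the block). The call in GCM LN18 was lost without GCM LN18 replicate 1 (adjusted p = 0.0779), replicate 2 (0.125) or replicate 3 (0.0566).

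Tmem119, a transmembrane protein used as a marker of resident microglia, was dim in these cultures, below the median gene level on all but the GCM LN18 arrays. Its log2 signals were 4.77, 4.96 and 4.65 in GCM LN18 and 3.96, 4.25 and 4.32 in GCM U87-MG, against 4.12, 3.64 and 3.88 in untreated cells. The GCM LN18 arrays stood above all others, and the GCM U87-MG arrays overlapped the untreated ones. The change in GCM LN18 was 1.89-fold (log2 0.91, standard error 0.15, adjusted p = 0.0390), a call kept in 2 of 9 fits (highest adjusted p = 0.228, without GCM LN18 replicate 2). With only the groups compared this call was also lost (adjusted p = 0.0677). In GCM U87-MG the log2 fold change was 0.30 (adjusted p = 0.604).

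A further 3 membrane proteins fell short of the threshold in either medium with the replicate block and passed it in at least 1 medium without it. Fcrls, an Fc receptor-like protein of mouse microglia, had log2 signals of 10.16, 10.07 and 10.09 in GCM LN18 and 10.25, 10.30 and 10.23 in GCM U87-MG, against 9.81, 9.85 and 9.90 in untreated cells. All GCM arrays of Fcrls lay above the untreated ones. Log2 fold changes of Fcrls were 0.25 in GCM LN18 (adjusted p = 0.106, 0.0115 without the block) and 0.41 in GCM U87-MG (adjusted p = 0.0838, 0.00450 without the block, 0.0307 with the block and trended and robust eBayes). Gpr34, a receptor for lysophosphatidylserine, had log2 signals of 6.13, 5.66 and 5.52 in GCM LN18 and 5.31, 5.79 and 5.85 in GCM U87-MG, against 4.99, 4.98 and 5.06 in untreated cells. The untreated arrays of Gpr34 lay close together and below the scattered GCM arrays. For Gpr34 the log2 fold change was 0.75 in GCM LN18 (adjusted p = 0.119, 0.0364 without the block) and 0.64 in GCM U87-MG (adjusted p = 0.364). Selplg, the ligand of P-selectin, had log2 signals of 7.74, 7.51 and 7.68 in GCM LN18 and 7.44, 7.41 and 7.41 in GCM U87-MG, against 7.19, 7.45 and 7.28 in untreated cells. The GCM LN18 arrays of Selplg lay above the untreated ones, which the GCM U87-MG arrays overlapped. Its log2 fold change was 0.33 in GCM LN18 (adjusted p = 0.148, 0.0349 without the block) and 0.11 in GCM U87-MG.

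The remaining 6 membrane proteins were called in no comparison. These were Il10ra, the ligand-binding chain of the interleukin-10 receptor, the collagen receptor Lair1, the sialic acid-binding lectin Cd33, the adhesion receptor Adgrg1, the uroplakin Upk1b and the endothelial surface protein gene Ecscr. Their log2 fold changes ran between -0.09 (Upk1b) and 0.13 (Il10ra) in GCM LN18, and between -0.11 (Ecscr) and 0.10 (Lair1) in GCM U87-MG. Adgrg1, Upk1b and Ecscr were dimmer than the median gene. The probe set of Adgrg1 is of a kind that can also bind transcripts of other genes.

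**Figure D2:**
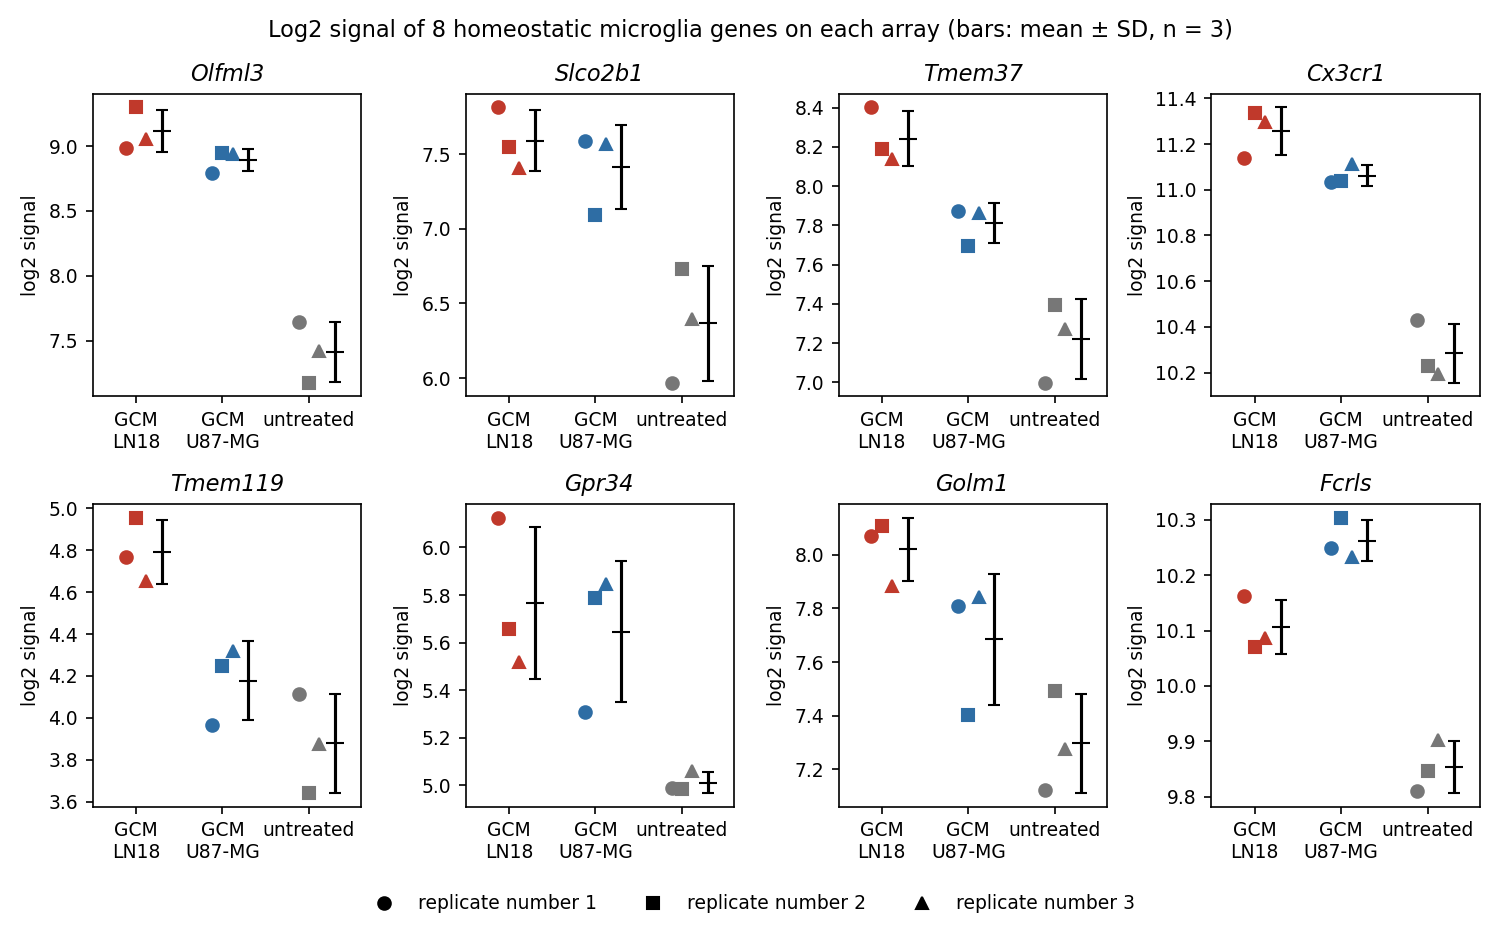
Log2 signal (vertical axis, own range in each panel) of 8 genes on each array, GCM LN18 in red, GCM U87-MG in blue and untreated in grey, with the marker shape for the replicate number and bars for the mean ± SD (n = 3). The 3 groups do not overlap for Olfml3, Tmem37, Cx3cr1 and Fcrls, of which Fcrls is highest in GCM U87-MG. GCM U87-MG overlaps untreated for Tmem119 and Golm1. Replicate offsets were removed before deposit, so the SD leaves out differences between replicate means.

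Of the 3 transporters, none was called in either medium alone with the block (2 with GCM LN18 and 1 with GCM U87-MG at p under 0.05 unadjusted, limma). Slco2b1, an organic anion transporter, had the second largest fold change of the set and a wide spread. Its log2 signals were 7.82, 7.55 and 7.41 in GCM LN18 and 7.59, 7.09 and 7.57 in GCM U87-MG, against 5.97, 6.73 and 6.40 in untreated cells. All GCM arrays lay above all untreated arrays. The log2 fold changes were 1.23 in GCM LN18 (standard error 0.22, adjusted p = 0.0502, 0.0102 without the block) and 1.05 in GCM U87-MG (adjusted p = 0.194, 0.0446 without the block). With the block kept, Slco2b1 passed in GCM LN18 under 4 alternatives, without control replicate 2 (adjusted p = 0.0333), without GCM U87-MG replicate 2 (0.0302), with array weights (0.0272) and, barely, with median centring. The probe set that stands for Slco2b1 is, like that of Adgrg1, of a kind that can also bind transcripts of other genes. Of the other probe sets of Slco2b1, 1 gave 0.72 in GCM LN18 (adjusted p = 0.0256 over all probe sets) and a dim one gave -0.01. The efflux pump gene Abcc3 had log2 fold changes of 0.43 in GCM LN18 (adjusted p = 0.200) and 0.27 in GCM U87-MG, and the dim fructose transporter gene Slc2a5 of -0.03 and 0.10.

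The transcription factors of microglia identity did not move together. Irf8, needed for microglia development, was the only one of 6 called with the block, and only in GCM LN18. Its log2 signals were 8.96, 8.89 and 8.93 in GCM LN18 and 8.91, 8.88 and 8.88 in GCM U87-MG, against 8.55, 8.65 and 8.60 in untreated cells. The GCM arrays lay close together above the untreated ones. The change was small, 0.33 on the log2 scale in GCM LN18 (standard error 0.06, adjusted p = 0.0480, 0.00309 without the block) and 0.29 in GCM U87-MG (adjusted p = 0.174, 0.0167 without the block). The call was kept in 0 of 9 fits with an array left out (adjusted p = 0.061 to 0.226). It was also lost with the mean of the probe sets (adjusted p = 0.0615) and with only the groups compared (0.124). A second probe set of Irf8 gave log2 fold changes of 0.32 in GCM LN18 (adjusted p = 0.131 over all probe sets) and 0.26 in GCM U87-MG (0.400). Adjusted in the same way, the probe set that stands for Irf8 had 0.0578 in GCM LN18.

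Mef2a and Mef2c, MADS-box factors, were higher on all GCM arrays than on all untreated ones, and neither was called with the block. Mef2a had log2 signals of 9.98, 10.12 and 9.89 in GCM LN18 and 9.81, 9.94 and 9.92 in GCM U87-MG, against 9.69, 9.42 and 9.67 in untreated cells. Mef2a had log2 fold changes of 0.40 in GCM LN18 (adjusted p = 0.117, 0.0278 without the block) and 0.30 in GCM U87-MG (adjusted p = 0.416). The 5 probe sets of Mef2a ran between 0.40 and 0.50 in GCM LN18. Mef2c had log2 signals of 8.79, 8.68 and 8.60 in GCM LN18 and 8.73, 8.69 and 8.68 in GCM U87-MG, against 8.27, 8.42 and 8.51 in untreated cells. Its log2 fold changes were 0.29 in GCM LN18 (adjusted p = 0.170, 0.0404 without the block) and 0.30 in GCM U87-MG (adjusted p = 0.317).

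Spi1, which encodes the myeloid lineage factor PU.1, and the zinc finger genes Sall1 and Sall3 were not called. Spi1 had log2 signals of 7.46, 7.51 and 7.49 in GCM LN18 and 7.32, 7.50 and 7.43 in GCM U87-MG, against 7.65, 7.41 and 7.51 in untreated cells. The 3 groups of Spi1 overlapped, with log2 fold changes of -0.04 (95% confidence interval -0.22 to 0.15) in GCM LN18 and -0.11 (-0.29 to 0.08) in GCM U87-MG. Sall1, a factor on which mouse microglia identity depends, had log2 signals of 4.78, 4.77 and 4.68 in GCM LN18 and 4.67, 4.47 and 4.74 in GCM U87-MG, against 4.79, 4.99 and 4.83 in untreated cells. All GCM arrays of Sall1 lay below all untreated arrays, the only member of which this held, against 5.29% of all genes. The gap was very small, as GCM LN18 minus untreated was -0.003 in replicate 1. Its log2 fold changes were -0.12 in GCM LN18 (adjusted p = 0.663) and -0.24 in GCM U87-MG (adjusted p = 0.479, unadjusted p = 0.0277 from limma). A dimmer probe set of Sall1 gave -0.06 in GCM LN18 but 0.02 in GCM U87-MG. Sall3 was dim, with log2 signals of 3.27, 3.18 and 3.29 in GCM LN18 and 3.19, 3.37 and 3.05 in GCM U87-MG, against 3.08, 2.99 and 3.21 in untreated cells. These groups overlapped, and its log2 fold changes were 0.15 and 0.11.

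**Figure D3:**
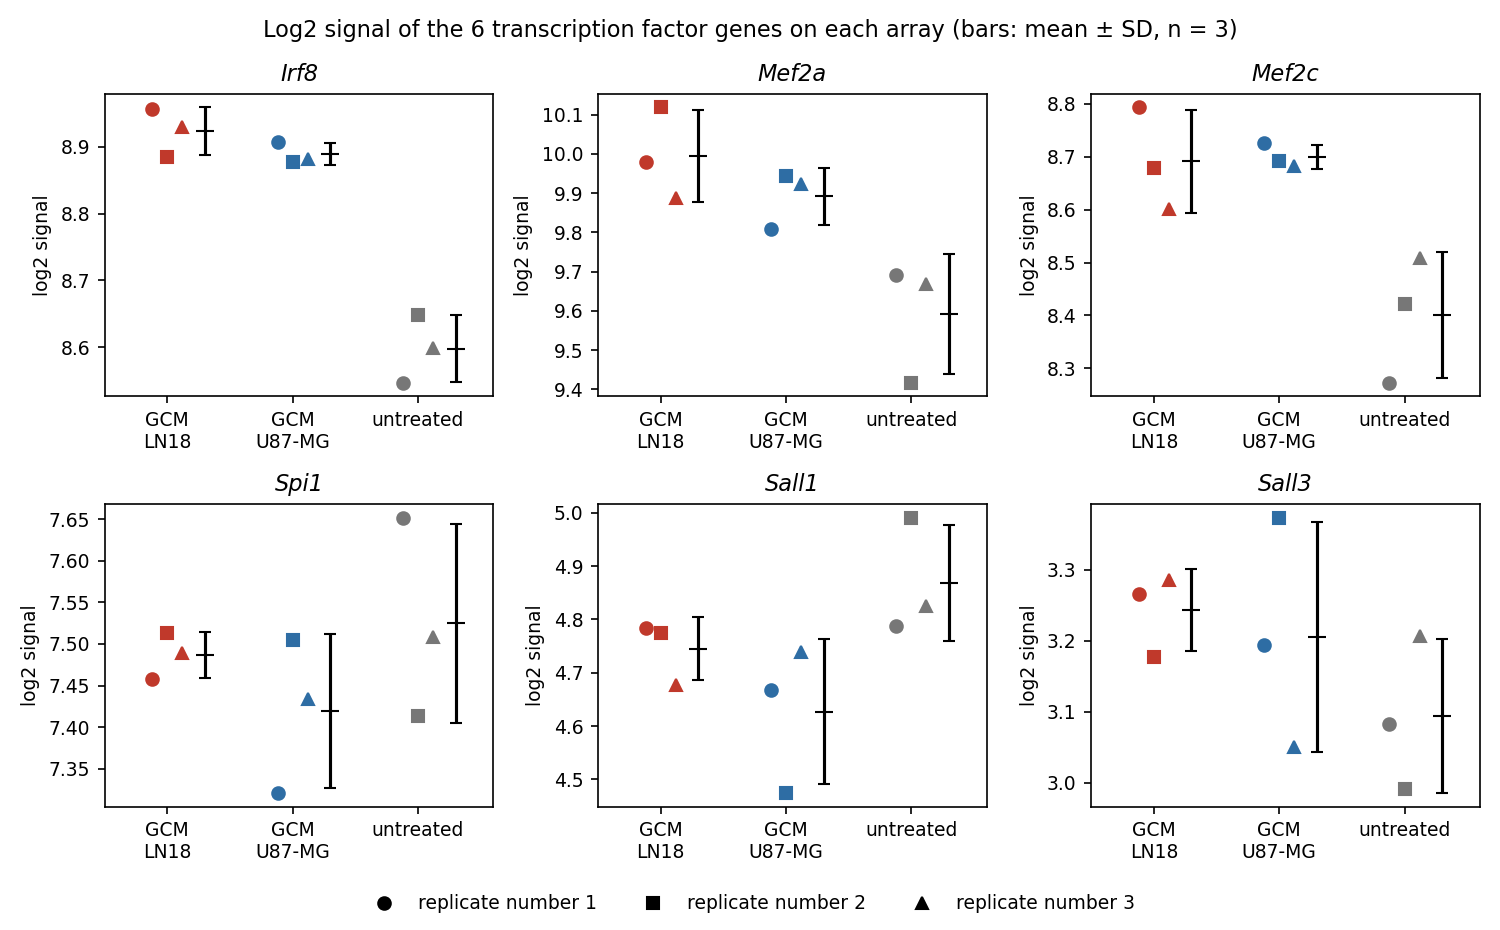
Log2 signal (vertical axis, own range in each panel) of 6 transcription factor genes on each array, GCM LN18 in red, GCM U87-MG in blue and untreated in grey, with the marker shape for the replicate number and bars for the mean ± SD (n = 3). GCM arrays lie above untreated ones for Irf8, Mef2a and Mef2c and, by a very small gap, below them for Sall1. The groups overlap for Spi1 and Sall3. The SD leaves out differences between replicate means, which were removed before deposit.

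Of 9 genes for lipid mediator synthesis, Golgi, lysosome, trafficking and signalling, 1 rose with GCM LN18 and 0 with GCM U87-MG (3 higher there at p under 0.05 unadjusted, limma). Bin1, an amphiphysin that shapes membranes in endocytosis, had log2 signals of 8.01, 8.03 and 8.05 in GCM LN18 and 7.94, 7.93 and 7.96 in GCM U87-MG, against 7.72, 7.71 and 7.67 in untreated cells. With replicate offsets already removed, the arrays within each group lay close together, and the 3 groups did not overlap. Its log2 fold changes were 0.33 in GCM LN18 (standard error 0.05, adjusted p = 0.0383) and 0.24 in GCM U87-MG (adjusted p = 0.210, 0.0175 without the block). The call in GCM LN18 was kept in 1 of 9 fits (highest adjusted p = 0.228, without GCM LN18 replicate 2). It was also lost with the mean of the probe sets (adjusted p = 0.0618) and with only the groups compared (0.107). A dim second probe set of Bin1 gave 0.18 in GCM LN18 (adjusted p = 0.335 over all probe sets) and 0.08 in GCM U87-MG.

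Golm1, Scoc and Ltc4s fell short of the threshold in GCM LN18 with the block and passed it without the block. Golm1, a Golgi membrane protein, had log2 signals of 8.07, 8.11 and 7.88 in GCM LN18 and 7.81, 7.40 and 7.84 in GCM U87-MG, against 7.12, 7.49 and 7.27 in untreated cells. The GCM LN18 arrays of Golm1 lay above the untreated ones, and GCM U87-MG replicate 2 lay among them. The fold change on the log2 scale was 0.72 in GCM LN18 (adjusted p = 0.0664, 0.0150 without the block) and 0.39 in GCM U87-MG (adjusted p = 0.474). With the block kept, Golm1 also passed in GCM LN18 under 4 other alternatives (adjusted p = 0.0153 to 0.0461). Scoc, a short coiled-coil protein of the Golgi, had log2 signals of 8.88, 8.87 and 8.75 in GCM LN18 and 8.56, 8.68 and 8.89 in GCM U87-MG, against 8.43, 8.32 and 8.24 in untreated cells. All GCM arrays of Scoc lay above the untreated ones. Its log2 fold changes were 0.50 in GCM LN18 (adjusted p = 0.0626, 0.0110 without the block) and 0.38 in GCM U87-MG (adjusted p = 0.285), and a second probe set gave 0.88 in GCM LN18 (adjusted p = 0.0381 over all probe sets). With the block kept, Scoc also passed in GCM LN18 under 5 other alternatives (adjusted p = 0.0337 to 0.0474). Ltc4s, the synthase of leukotriene C4, had log2 signals of 5.90, 5.67 and 5.72 in GCM LN18 and 5.43, 5.54 and 5.50 in GCM U87-MG, against 5.27, 5.39 and 5.39 in untreated cells. The 3 groups of Ltc4s did not overlap. Ltc4s had log2 fold changes of 0.41 in GCM LN18 (adjusted p = 0.0620, 0.00937 without the block) and 0.14 in GCM U87-MG (adjusted p = 0.668).

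The other 5 genes of this kind were not called. Lpcat2, an acyltransferase of platelet-activating factor synthesis, had log2 fold changes of 0.65 in GCM LN18 (adjusted p = 0.202) and 0.44 in GCM U87-MG. Tanc2, a scaffold protein, had the lowest fold change of the set in GCM LN18, -0.31 (adjusted p = 0.189, 0.0501 without the block), and -0.17 in GCM U87-MG. A dimmer probe set of Tanc2 gave -0.65 in GCM LN18 (adjusted p = 0.0250 over all probe sets). The lysosomal protease gene Ctsf, the small GTPase gene Rhob and the GTPase-activating protein gene Arhgap22 ran between -0.05 (Ctsf) and 0.13 (Rhob) in GCM LN18 and between -0.09 (Rhob) and 0.07 (Ctsf) in GCM U87-MG.

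**Figure D4:**
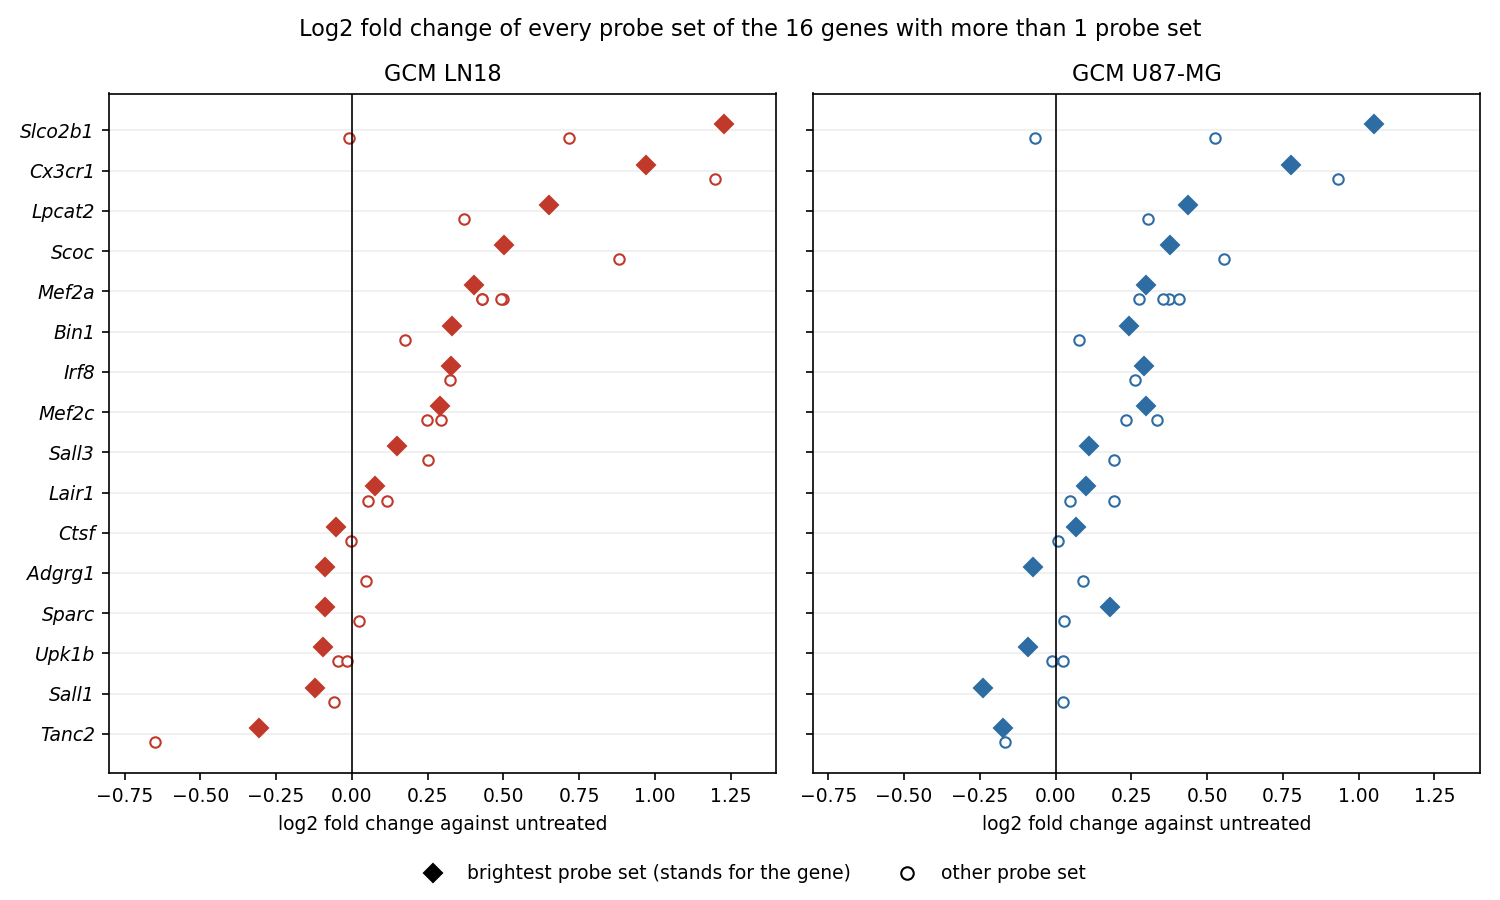
Log2 fold change (horizontal axis) of every probe set of the 16 genes that had more than 1, GCM LN18 in the left panel and GCM U87-MG in the right; filled diamonds are the probe sets that stand for the genes and open circles are the others. The probe sets of Mef2a lie close together, those of Slco2b1 spread between -0.01 and 1.23 in GCM LN18, and both of Tanc2 lie left of 0.

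Of the 33 measured genes, 16 had more than 1 probe set (56 probe sets in all), and the probe sets of 3 genes differed in sign in GCM LN18. Signal level was also compared. Of the 25 members above the median gene level, 20 had a fold change above 0 in GCM LN18 (median 0.33), whereas of the 8 dimmer members 2 did (median -0.04), with Tmem119 the only one called. In GCM U87-MG these were 19 of 25 (median 0.27) and 5 of 8 (median 0.09).

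With the mean of both media set against untreated microglia, 7 members rose and 0 were lower, against 0.509% of all genes called higher and 0.304% lower. Without the block these were 14 and 0 members, against 2.34% and 2.47%. Unadjusted (p under 0.05, limma), they were 17 and 2, against 5.87% and 6.56%. These were Olfml3, Slco2b1, Cx3cr1, Tmem37, Fcrls, Irf8 and Bin1. Slco2b1 (log2 1.14, adjusted p = 0.0411) and Fcrls (log2 0.33, adjusted p = 0.0366) passed here and in neither medium alone, and Tmem119 did not pass (log2 0.61, adjusted p = 0.0861). On all 6 GCM arrays 12 members lay above all untreated arrays, against 4.51% of all genes.

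The media themselves were compared directly. No member was called between GCM LN18 and GCM U87-MG (lowest adjusted p = 0.917), and 0% of all genes were, while without adjustment (p under 0.05 from limma) 5 members were higher with GCM LN18 (2.59% of all genes) and 2 lower (2.47%). Without the block 0 members and 0.00585% of all genes were called. The largest difference was that of Tmem119, 0.62 on the log2 scale (95% confidence interval 0.28 to 0.95). Tmem37 differed by 0.43 (0.16 to 0.71). For Olfml3 the difference was 0.22 (-0.08 to 0.52), for Cx3cr1 0.20 (-0.002 to 0.39) and for Fcrls -0.16 (-0.29 to -0.02). These intervals are for single genes, without adjustment, so the data allow differences between the media up to their bounds.

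Other genes of microglia were counted in the same fits. The 33 further measured genes expressed by microglia included purinergic receptors, complement genes and growth factor receptors. With GCM LN18, 2 of them rose (6.06%, against 0.538% of all genes) and 1 fell. Without the block these counts were 5 and 1. Unadjusted (p under 0.05, limma), 9 were higher there (5.68% of all genes) and 2 lower (6.55%). Raised counts with GCM LN18 were thus not particular to the members, although the median log2 fold change of these other genes was 0.04. With GCM U87-MG 0 were called, and without the block 2 were higher and 1 lower. Unadjusted (p under 0.05, limma), 3 were higher (4.36% of all genes) and 3 lower (4.76%), with a median of 0.06. In GCM LN18 Itgb5, an integrin subunit, rose by 0.79 on the log2 scale (adjusted p = 0.0152). Tgfbr1, a receptor for TGFβ, rose there by 0.60 (adjusted p = 0.0366), and Gas6, a ligand of TAM receptors, fell by 0.36 (adjusted p = 0.0412). Of 12 measured genes of disease-associated microglia, Ch25h, which makes 25-hydroxycholesterol, rose by 1.09 (adjusted p = 0.0473) in GCM LN18 and 0 were lower there. The share called higher was 8.33%, against 0.538% of all genes. For the other counts of this list, the shares of all genes are those given above. Without the block, 1 was higher and 1 lower in GCM LN18 (Clec7a, a lectin receptor, log2 -0.28, adjusted p = 0.106, 0.0157 without the block), and at p under 0.05 unadjusted 1 was higher and 2 lower. All GCM LN18 arrays lay below all untreated arrays for 4 of the 12 (33.3%, against 12.8% of all genes). In the other medium 0 were called in GCM U87-MG (1 higher without the block, 1 higher and 2 lower at p under 0.05 unadjusted, limma). The medians of that list were -0.04 with GCM LN18 and -0.05 with GCM U87-MG. Its log2 fold changes ran between -0.57 and 1.09 in GCM LN18 and between -0.65 and 1.04 in GCM U87-MG. Clec7a was thus not the lowest in GCM LN18, but the only one called lower there without the block.

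Promoters of 4 genes that rose in GCM LN18 are shown as windows of RefSeq (GRCm38.p6), running from 250 bases before the transcription start to 50 after it, because PU.1 and Smad proteins, the effectors of TGFβ, are regulators of the microglia program. Both strands were searched for GAGGAA, the core of the PU.1 site, and CAGAC, the Smad binding element, and matches are in capitals. The windows are Olfml3 at chr3:103737952-103738251 (minus strand), Tmem37 at chr1:120073731-120074030 (minus strand), Cx3cr1 at chr9:120068247-120068546 (minus strand) and Irf8 at chr8:120736108-120736407 (plus strand), the last being 1 of 2 windows of its gene.
Olfml3: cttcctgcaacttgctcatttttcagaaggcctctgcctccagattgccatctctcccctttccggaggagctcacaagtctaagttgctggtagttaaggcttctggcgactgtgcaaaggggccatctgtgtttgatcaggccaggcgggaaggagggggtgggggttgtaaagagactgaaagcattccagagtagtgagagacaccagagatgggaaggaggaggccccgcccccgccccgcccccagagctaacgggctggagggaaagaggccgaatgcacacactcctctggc
Tmem37: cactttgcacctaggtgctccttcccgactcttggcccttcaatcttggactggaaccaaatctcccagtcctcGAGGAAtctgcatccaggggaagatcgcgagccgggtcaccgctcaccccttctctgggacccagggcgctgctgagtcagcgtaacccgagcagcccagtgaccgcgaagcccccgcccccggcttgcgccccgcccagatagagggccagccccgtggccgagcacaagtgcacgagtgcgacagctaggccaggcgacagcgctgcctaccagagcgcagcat
Cx3cr1: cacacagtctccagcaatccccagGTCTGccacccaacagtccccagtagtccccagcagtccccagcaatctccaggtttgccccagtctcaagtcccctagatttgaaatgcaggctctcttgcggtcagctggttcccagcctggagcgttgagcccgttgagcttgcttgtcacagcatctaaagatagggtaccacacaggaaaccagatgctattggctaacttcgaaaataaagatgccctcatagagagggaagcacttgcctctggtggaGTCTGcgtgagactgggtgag
Irf8: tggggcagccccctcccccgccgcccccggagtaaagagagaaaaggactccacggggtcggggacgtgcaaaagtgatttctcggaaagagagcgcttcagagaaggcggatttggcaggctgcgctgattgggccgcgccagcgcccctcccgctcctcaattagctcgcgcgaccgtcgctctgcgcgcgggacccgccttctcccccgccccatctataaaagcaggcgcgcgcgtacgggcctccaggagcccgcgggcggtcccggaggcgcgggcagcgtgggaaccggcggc
The Tmem37 window holds GAGGAA at -176 from the start. The Cx3cr1 window holds the Smad element at -226 and at 30, both as GTCTG, and the windows of Olfml3 and Irf8 hold neither motif. Windows were found for 24 of the members, 33 windows in all. GAGGAA was in 13 of these windows (39.4%, from 10 of the 24 genes) and in 28.3% of 32851 windows of all genes. CAGAC was in 24 (72.7%, from 18 of the 24 genes) and in 49.6%. A match is only a run of letters and not a bound site.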

How the data were processed

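RNA of primary mouse microglia (3 samples each in GCM LN18, GCM U87-MG and untreated) was hybridized to 9 single-colour Affymetrix arrays. The authors deposited 45141 probe sets as log2 signals, already normalized. Per the labels limma was used, its version and the normalization method being not given in the sources used here. Removing the mean of each replicate number leaves fewer degrees of freedom than arrays and hides differences between cultures. Of the probe sets, 104 controls, 551 with several symbols and 15588 unnamed here were left out, and of 28898 with 1 symbol 28689 were matched to current symbols by gene identifier. Arrays have no read depth, and their number limits the precision.

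All 9 arrays were fitted in limma 3.58.1 (R 4.3.3) with group means and the replicate number as a block, and p-values were adjusted by Benjamini-Hochberg over 17097 genes. The block was the main design because of the equal means, which also make deviations of same-numbered arrays sum to 0, so their correlation could not test the pairing. Values per array are given for members called in any comparison with or without the block and for transcription factors. Mrc1, Pf4, Aif1 and Clec7a were named after their values were seen. The members and lists were chosen with earlier results of these data known. Alternatives were no block, trended and robust eBayes, a filter on dim genes, other uses of probe sets, only the groups compared, quantile normalization, median centring, array weights and leaving out each array. Scripts were tested on simulated data.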

Additional observations from a re-analysis of the deposited data

How the results depend on the processing

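Without the replicate block, 894 genes were called in GCM LN18 (15 members higher), 259 in GCM U87-MG (7 members higher), 823 with both media together (14 members higher) and 1 between the media. In GCM LN18, array weights gave 265 genes and a fit of only the groups compared gave 89. In GCM U87-MG, where 8 genes were called, trended and robust eBayes gave 21 genes, only genes above the median level 3, the mean of the probe sets 5, every probe set on its own 5, quantile normalization 3, array weights 4 and only the groups compared 0. Members called higher in GCM U87-MG numbered 1 with the filter on dim genes, 1 with quantile normalization and 0 with only the groups compared, and the median of the members was 0.27 with the filter. With both media together, array weights left 4 members higher. In GCM LN18, 1 member, Tanc2, was called lower with the mean of the probe sets (log2 fold change -0.48, adjusted p = 0.0483) and 1 with every probe set on its own. Causes of these changes were not tested, beyond the fewer genes or arrays that some alternatives hold.

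With each array left out in turn, genes called in GCM LN18 ran between 3 (without GCM LN18 replicate 2) and 179, those in GCM U87-MG between 0 and 10, and the others between 10 and 154 with both media together and 0 and 0 between the media. Members called higher in GCM LN18 ran between 1 (without GCM LN18 replicate 2) and 6, those in GCM U87-MG between 0 and 2, and between 2 and 5 with both media together. Medians of the members ran between 0.21 and 0.29 with GCM LN18, 0.12 and 0.19 with GCM U87-MG, 0.16 and 0.27 with both media together and 0.04 and 0.13 between the media. For single members against untreated cells, no call changed sign under these alternatives. In GCM LN18, 490 values kept their side of the threshold, 33 fell short of it and 23 newly passed it, and in GCM U87-MG these were 522, 15 and 6. Values that were not called changed sign 7 times against untreated cells for GCM LN18, and 10 times for GCM U87-MG.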
